A study of Mus musculus with 4 samples.

Results

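The genes described here are 6 parts of the pre-B cell receptor signalling chain: Cd79a, Cd79b, Blnk, Btk, Syk and Lyn. They were taken by symbol from the 32285 gene features of the count matrices, and all 6 were found. Each is described in every library and, above all, in the cells of the B lineage.

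Kit-positive bone marrow cells carrying the CD45.2 allele were taken from mice 10 weeks after transplantation, stained with barcoded antibodies and sequenced as single cells. The cells of the 4 groups, with 1 library per group, are labelled as having either no deletion (control), a deletion of Mll3, a deletion of Mll4, or deletions of both genes (Mll3/4). These genes encode histone methyltransferases and are listed in the matrices as Kmt2c and Kmt2d. The labels do not give the sex or strain of the mice, how the genes were deleted, which exons were removed, or how many mice were pooled. With 1 library per group no test between conditions was possible, so every interval given is at 95% and covers nothing beyond counting error, and what is compared are single libraries. The 3 deletion libraries were set against the same control library and so share its error.

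The pre-B cell receptor is a surface complex of an immunoglobulin mu heavy chain and the surrogate light chain made from Vpreb and Igll1. It signals through Cd79a and Cd79b, transmembrane chains whose tails carry the tyrosine motifs that are phosphorylated when the receptor assembles. Lyn, a Src-family kinase, can phosphorylate these tails, Syk docks on them, and Syk phosphorylates the adaptor Blnk. Blnk in turn brings Btk, a Tec-family kinase, to its substrate phospholipase C gamma 2. In bone marrow this signal is known for driving pro-B cells through the pre-B checkpoint, where they divide and then rearrange the light chain.

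The deposited counts held 10001 barcodes in control, 9491 in the Mll3-labelled, 6622 in the Mll4-labelled and 8284 in the Mll3/4-labelled library. After filtering, 7146, 5860, 5350 and 6917 cells were kept in that order, with medians of 15754, 16963.5, 5142 and 9965 UMIs (unique molecular identifiers, or counted RNA molecules) per cell. The barcodes of 112 kept cells occurred in more than 1 library. Kmt2c stood at 47.9 counts per 1000000 UMIs (CPM) in control, 27.2 in the Mll3-labelled, 59.2 in the Mll4-labelled and 34.8 in the Mll3/4-labelled library. Kmt2d stood at 25.8, 21.6, 25.0 and 24.7 CPM in the same order, so the 3′ reads did not show its deletion in the libraries labelled for it. Reads at the 3′ end do not check a deletion elsewhere in a gene. Xist, which is transcribed from an inactive X chromosome, stood at 990 CPM in control, 955 in the Mll3-labelled and 1839 in the Mll3/4-labelled library but at 0.519 CPM in the Mll4-labelled one. For that library, deletion and sex cannot be told apart.

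On GRCm38, in the GENCODE M21 annotation, the 6 genes lie on 6 chromosomes. Cd79a (ENSMUSG00000003379) is at chr7:24897381-24902197 on the plus strand. Cd79b (ENSMUSG00000040592) is at chr11:106311341-106314762 on the minus strand. Blnk (ENSMUSG00000061132) is at chr19:40928927-40994535 on the minus strand. Btk (ENSMUSG00000031264) is at chrX:134542336-134583570 on the minus strand and overlaps Gm15154 on the opposite strand. Syk (ENSMUSG00000021457) is at chr13:52583173-52648792 on the plus strand. Lyn (ENSMUSG00000042228) is at chr4:3678115-3813122 on the plus strand and overlaps 4 annotated genes on the opposite strand. Whether strand was used in counting is not given in the sources used here, so reads of Btk and Lyn cannot be told apart from reads of these partners.

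Start regions were in the RefSeq promoter table (GRCm38.p6) for Cd79a, Blnk, Btk and Syk, and not for Cd79b and Lyn. Those of Cd79a and Blnk are shown because these genes had nearly the same pattern across cell classes, and that of Btk because it had the widest difference in B-lineage cells. Within 250 bases before each RefSeq start, 4 motifs were searched on both strands: the EBF1 motif, TCCC and GGGA around 2 bases of any kind (in 0.787% of 32536 promoter windows of that length), the octamer ATTTGCAT (1.62%), the E2A E-box CAGGTG (17.3%) and the Ets motif AGGAAGT (7.70%). The RefSeq starts are not the GENCODE gene starts given above: the windows of Blnk, Btk and Syk lie inside the annotated genes, that of Blnk with all 250 bases in exons and that of Btk with 0, and 116 of the 250 bases of the Cd79a window are in exons. Capitals mark a match, and bases inside an annotated exon are shown only close to a match. The lines below give the Cd79a stretch before its first exon at chr7:24897247-24897380 (plus strand), the surroundings of an Ets match in its first exon at chr7:24897431-24897459, 3 stretches of Blnk around its octamer, E-box and Ets matches at chr19:40994333-40994362, chr19:40994364-40994393 and chr19:40994406-40994434 (minus strand), and the Btk window at chrX:134583141-134583390 (minus strand).
Cd79a, E-box: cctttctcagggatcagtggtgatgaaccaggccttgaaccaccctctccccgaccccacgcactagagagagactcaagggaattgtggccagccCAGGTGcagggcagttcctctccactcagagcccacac
Cd79a, Ets: cacggctgaacAGGAAGTgaggcggagtt
Blnk, octamer: tactggaagggATTTGCATgcccaataagg
Blnk, E-box on the opposite strand: aacctggcaacaCACCTGatcataaaagag
Blnk, Ets: ttgggacaaacAGGAAGTagtgctcagtc
Btk: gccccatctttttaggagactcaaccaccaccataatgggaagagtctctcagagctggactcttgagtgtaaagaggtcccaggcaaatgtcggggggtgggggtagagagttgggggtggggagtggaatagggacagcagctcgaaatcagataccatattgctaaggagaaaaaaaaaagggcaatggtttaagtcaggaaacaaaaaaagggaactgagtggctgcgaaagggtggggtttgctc
Cd79a and Blnk each held an E-box and an Ets match, and Blnk alone of the 4 genes held an octamer. The Btk window held none of the 4 motifs and the EBF1 motif was in none of the windows, which says only that these letters are not there. The start regions of Syk, of which there were 2, each held an E-box and no other match.

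B-lineage cells were found by clustering the cells of all libraries together, with the 6 genes and the pathway genes named further on left out, and by naming clusters from markers. The B-cell progenitor-like class consisted of 7 clusters, in each of which all 10 of its markers (among them Ebf1, Pax5, Rag1 and Il7r) were detected in at least 10% of cells. It held 467 cells in control (6.54% of the kept cells), 370 in the Mll3-labelled (6.31%), 142 in the Mll4-labelled (2.65%) and 6831 in the Mll3/4-labelled library (98.8%). Different clusters held the class in the different libraries. Clusters 19 and 21 held the control, Mll3-labelled and Mll4-labelled cells, and clusters 0, 1, 6, 9 and 22 held 6825 of the 6831 Mll3/4-labelled cells and 8 cells of the other libraries. The B220 antibody, which the clustering did not use, was above its threshold in 98.9% of control, 98.1% of Mll3-labelled, 92.3% of Mll4-labelled and 14.8% of Mll3/4-labelled cells of the class. Depth also differed, with medians of 4410, 6481, 2292 and 9936 UMIs per cell in that order.

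Summed over all kept cells, Cd79a, Cd79b and Blnk were far higher in the Mll3/4-labelled library than in any other, and Btk was far lower. Cd79a stood at 39.1 CPM in control, 42.6 in the Mll3-labelled, 14.0 in the Mll4-labelled and 2933 in the Mll3/4-labelled library, which is 75.0-fold above control. Cd79b stood at 27.2, 34.6, 15.2 and 491 CPM in the same order. Blnk stood at 9.56, 10.2, 4.55 and 446 CPM. For these 3 genes the Mll4-labelled library was lowest and the Mll3/4-labelled library highest, with intervals that did not meet those of control.

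The kinases followed another order over all cells. Btk stood at 54.0 CPM in control, 50.6 in the Mll3-labelled, 67.4 in the Mll4-labelled and 4.94 in the Mll3/4-labelled library. Syk stood at 39.9, 33.7, 77.1 and 27.5 CPM. Lyn stood at 38.3, 30.3, 115 and 22.1 CPM. All 3 kinases were thus highest in the Mll4-labelled and lowest in the Mll3/4-labelled library. Against control the Mll3/4-labelled library had 3 of the 6 genes 2-fold or more higher and 1 lower, where 19.8% of 15158 genes were that much higher and 19.5% that much lower. The Mll4-labelled library had 1 gene higher (Lyn) and 2 lower (Cd79a and Blnk), against 9.67% and 8.68% of genes. The Mll3-labelled library had none, against 1.58% of genes higher and 3.4% lower.

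These sums mix cell types. In control, the 2.06% of UMIs that came from B-cell progenitor-like cells gave 94.8% of the Cd79a counts, 92.3% of those of Blnk and 54.2% of those of Cd79b, but 3.0% of Btk, 5.8% of Syk and 3.2% of Lyn. In the Mll3/4-labelled library the same class gave 97.8% of UMIs and between 80.2% (Btk) and 99.9% (Blnk and Cd79a) of each gene's counts. The comparison within the class is therefore given next.

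Within B-cell progenitor-like cells the receptor chains and the adaptor were present in all 4 libraries, and the 3 kinases were low in the Mll3/4-labelled library. Cd79a stood at 1799 CPM (1753 to 1847) in control, 1508 (1463 to 1554) in the Mll3-labelled, 1170.0 (1060.2 to 1288) in the Mll4-labelled and 2998 (2985 to 3010) in Mll3/4-labelled cells. The log2 ratios to control were -0.25 (-0.31 to -0.20), -0.62 (-0.77 to -0.48) and 0.74 (0.70 to 0.77), so that no 2 libraries had overlapping Cd79a intervals.

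Cd79b, its partner chain, did not follow Cd79a in the Mll3/4-labelled library. Its levels were 717 CPM (688 to 747) in control, 679 (649.7 to 710.3) in the Mll3-labelled, 434 (368 to 508) in the Mll4-labelled and 501 (496 to 506) in Mll3/4-labelled cells. The interval of the log2 ratio included 0 for the Mll3-labelled library (-0.08, -0.16 to 0.01) and lay below 0 for the Mll4-labelled (-0.72, -0.97 to -0.49) and Mll3/4-labelled libraries (-0.52, -0.58 to -0.45). There were 2.51 Cd79a counts for each Cd79b count in control (2.39 to 2.64), 2.22 in the Mll3-labelled (2.10 to 2.34), 2.69 in the Mll4-labelled (2.23 to 3.26) and 5.98 in Mll3/4-labelled cells (5.92 to 6.05). Since the chains work as a heterodimer, this ratio is of the 2 transcripts only, and the proteins were not measured. When all cells with at least 3 UMIs of the class markers were taken in place of the class, the Mll3/4-labelled log2 ratio was 0.03 for Cd79b and 1.38 for Cd79a. This gate held 619 control cells, beside 467 in the class, and 6851 Mll3/4-labelled cells, beside 6831. It thus changed mainly the control side.

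Blnk differed least between libraries. It stood at 428 CPM (406 to 452) in control, 409.9 (387 to 434) in the Mll3-labelled, 349.6 (291 to 417) in the Mll4-labelled and 456 (451 to 461) in Mll3/4-labelled cells. The log2 ratios were -0.06 (-0.18 to 0.05), -0.29 (-0.57 to -0.03) and 0.09 (0.01 to 0.17). The last was -0.12 (-0.23 to 0.00257) in the non-dividing clusters alone and 0.25 (0.14 to 0.36) in the dividing clusters alone.

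Btk had the widest difference of the 6. It stood at 78.3 CPM (68.9 to 88.7) in control, 66.0 (57.0 to 76.1) in the Mll3-labelled, 64.8 (41.1 to 97.3) in the Mll4-labelled and 4.06 (3.62 to 4.54) in Mll3/4-labelled cells. The first 3 libraries overlapped, and the Mll3/4-labelled library lay 19.3-fold below control (log2 ratio -4.27, -4.52 to -4.02). This rests on 248 Btk counts in 467 control cells and 308 counts in 6831 Mll3/4-labelled cells.

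Syk and Lyn were lower as well, by less. Syk stood at 112 CPM (101 to 125) in control, 101 (89.8 to 113) in the Mll3-labelled, 93.0 (64.0 to 131) in the Mll4-labelled and 26.9 (25.7 to 28.1) in Mll3/4-labelled cells. Its ratio to control in the last was -2.06 on the log2 scale (-2.23 to -1.90), or 4.18-fold lower. Lyn stood at 60.0 CPM (51.8 to 69.1), 46.9 (39.3 to 55.5), 64.8 (41.1 to 97.3) and 21.2 (20.2 to 22.3) over the libraries as ordered above, and was 2.82-fold lower in the Mll3/4-labelled library (-1.50, -1.72 to -1.27). The ratio of Lyn in the Mll3-labelled class was -0.36 (-0.68 to -0.03), an interval that leaves out 0. For both kinases the level intervals of control, Mll3-labelled and Mll4-labelled cells overlapped and the Mll3/4-labelled interval lay below all 3.

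Of the 6 genes, 3 were 2-fold or more lower and 0 higher in the Mll3/4-labelled class, where 10.5% of 12825 genes were that much lower and 12.4% higher. Neither of the single-deletion libraries had any of the 6 past 2-fold in this class, against 0.609% of genes higher and 2.59% lower for the Mll3-labelled and 9% and 8.24% for the Mll4-labelled library. The median log2 ratio of the 6 was -0.20 in the Mll3-labelled, -0.28 in the Mll4-labelled and -1.01 in the Mll3/4-labelled library, beside -0.09, 0.11 and -0.01 over all genes. Cells were also taken by the B220 antibody alone, whatever their class. The Mll4-labelled log2 ratios were then -1.54 for Cd79a, -1.56 for Cd79b, -1.11 for Blnk and 1.08 for Lyn, over 253 cells. Of these, 131 were in the B-cell progenitor-like class, against 462 of 537 in control. In the class cells above the B220 threshold the same ratios were -0.64, -0.78, -0.26 and 0.19. By the B220 antibody alone the 3 Mll3/4-labelled kinase values stayed past 2-fold, at -3.50 for Btk, -2.09 for Syk and -1.58 for Lyn.

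**Figure D1:**
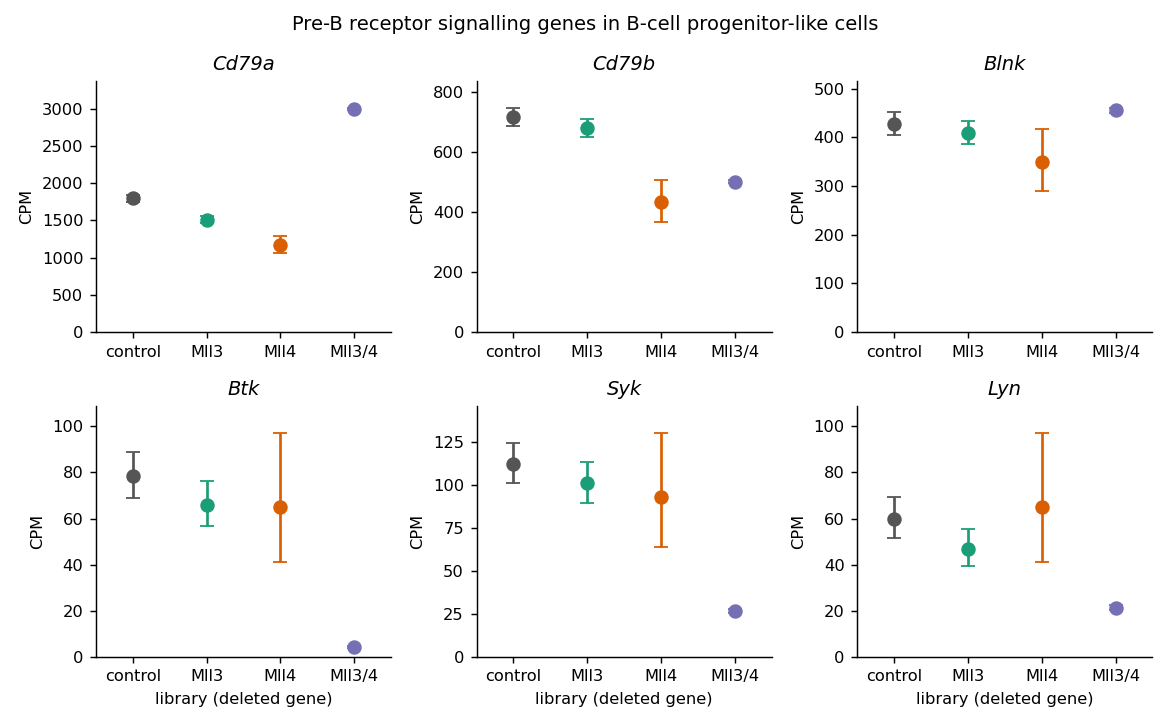
Level of each of the 6 genes in B-cell progenitor-like cells, in counts per 1000000 UMIs (linear axis from 0), for the control library and the libraries labelled as deleted for Mll3, Mll4 and Mll3/4. Points are single libraries and bars are 95% intervals of counting error; Btk, Syk and Lyn lie lowest in the Mll3/4 library (4.06, 26.9 and 21.2 CPM) and Cd79a lies highest there (2998 CPM).

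Markers of other cell types moved with this comparison. In the control B-cell progenitor-like cells the 8 neutrophil markers summed to 2423 CPM, or 0.649% of their level in the neutrophil-like cells of that library, with Mmp8 at 0, and in the Mll3/4-labelled class to 78.0 CPM, or 0.0209%. The 6 granulocyte progenitor markers stood at 2.13% and 0.10% of their own class, the 8 erythroid markers at 4.10% and 2.59%, the 7 monocyte markers at 8.02% and 0.663%, and the 6 megakaryocyte markers at 0.179% (Ppbp, Gp9, Vwf and Gp1bb at 0) and 0.00646%. In the Mll4-labelled class the neutrophil markers summed to 6315 CPM and the monocyte markers to 175 CPM (Csf1r at 0). The part of RNA from other cells in the kinase values was not tested. Over all control cells outside the B classes Btk stood at 53.5, Syk at 38.3 and Lyn at 37.8 CPM, below the 78.3, 112 and 60.0 CPM of the class itself. These are means over unlike classes, and erythroid progenitor-like cells gave 46.0% of all control UMIs. By single class, as given below, Lyn was higher in neutrophil-like cells than in the B-cell progenitor-like class. Btk in megakaryocyte-like cells did not differ from it beyond counting error, and Syk was highest in it. In the Mll3/4-labelled library the 86 cells outside the B classes held Btk at 43.5 CPM (34.3 to 54.5), Syk at 53.3 (43.0 to 65.3) and Lyn at 60.7 (49.7 to 73.4), so all 3 kinases were detected in that library's other cells. These 86 cells also held Cd79a at 140 CPM (123 to 158), Cd79b at 45.8 and Blnk at 20.1. Control cells outside the B classes held them at 0.605, 11.6 and 0.652 CPM. The part of RNA from B-lineage cells in these 86 cells was not tested.

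Since depth differed, cells were also thinned to 2000 UMIs each, and shallower cells were left out (30 of 467 in control, 20 of 370, 68 of 142, and 83 of 6831). A Btk UMI was then found in 14.4% of control cells of the class (11.3% to 18.1%), 13.7% of Mll3-labelled, 10.8% of Mll4-labelled (4.78% to 20.2%) and 0.682% of Mll3/4-labelled cells (0.499% to 0.908%). Unthinned, the shares were 34.3%, 37.6%, 14.1% and 3.29%. Syk was found in 22.9%, 19.1%, 16.2% and 5.59% of thinned cells, and Lyn in 11.2%, 10.9%, 6.76% and 4.65%. Cd79a was found in 94.97%, 94.3%, 79.7% and 99.1%, Cd79b in 79.2%, 74.0%, 51.4% and 59.2%, and Blnk in 59.7%, 56.9%, 31.1% and 58.7%. In control erythroid progenitor-like cells thinned to the same depth (median before thinning 46473.5 UMIs), Cd79a was found in 0.184% of cells, Blnk in 0.0613% and Cd79b in 1.41%. The kinases are not specific to B cells, and there they were found in 11.6% (Btk), 3.80% (Syk) and 5.21% (Lyn) of cells. The Mll3/4-labelled share for Btk was therefore below that of control erythroid cells, and a UMI of at least 4 of the 6 genes was found in 22.4% of control, 19.7% of Mll3-labelled, 4.05% of Mll4-labelled and 4.31% of Mll3/4-labelled cells of the class.

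The class was next split by division, since pre-B receptor signalling is tied to it. Clusters with at least 1000 CPM of Mki67, a marker of cycling cells, were called dividing, a cut chosen after seeing the data. They held 33.0% of the class in control, 41.4% in the Mll3-labelled, 45.8% in the Mll4-labelled and 24.2% in the Mll3/4-labelled library. In the control library the non-dividing cluster 19 held more Cd79a than the dividing cluster 21 (2334 against 1450.5 CPM), more Cd79b (960.2 against 558), more Syk (153 against 86.0) and more Lyn (78.6 against 48.0). Btk did not separate them there (71.4 and 82.9 CPM, with overlapping intervals).

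The kinases were lower in the Mll3/4-labelled library in both kinds of cluster. The log2 ratio for Btk was -4.51 (-4.90 to -4.13) in dividing and -4.06 (-4.42 to -3.69) in non-dividing clusters. For Syk it was -1.43 (-1.67 to -1.18) and -2.64 in that order, and for Lyn -1.44 (-1.77 to -1.10) and -1.77. Cd79a was higher in both, at 0.98 and 0.39, and Cd79b lower in both, at -0.91 and -0.68. The directions of these 5 genes were thus the same in both kinds of cluster, while that of Blnk was not, as given above.

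Among the 5 Mll3/4-labelled clusters, Cd79a ranged least as a ratio (1.31-fold), from 2567 CPM in cluster 9 to 3363 in cluster 1. Cd79b ranged from 256 CPM in the dividing cluster 6 to 703 in cluster 1, and Blnk from 304 in cluster 9 to 570.4 in cluster 0. Syk ranged from 12.5 CPM in cluster 9 to 41.3 in the dividing cluster 22, and Lyn from 16.96 in cluster 6 to 26.5 in cluster 1. Btk ranged from 2.30 CPM in cluster 1 to 6.27 in cluster 0. The highest Btk, Syk and Lyn levels in these 5 clusters were each below the lowest level of the same kinase in the control clusters (71.4, 86.0 and 48.0 CPM).

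**Figure D2:**
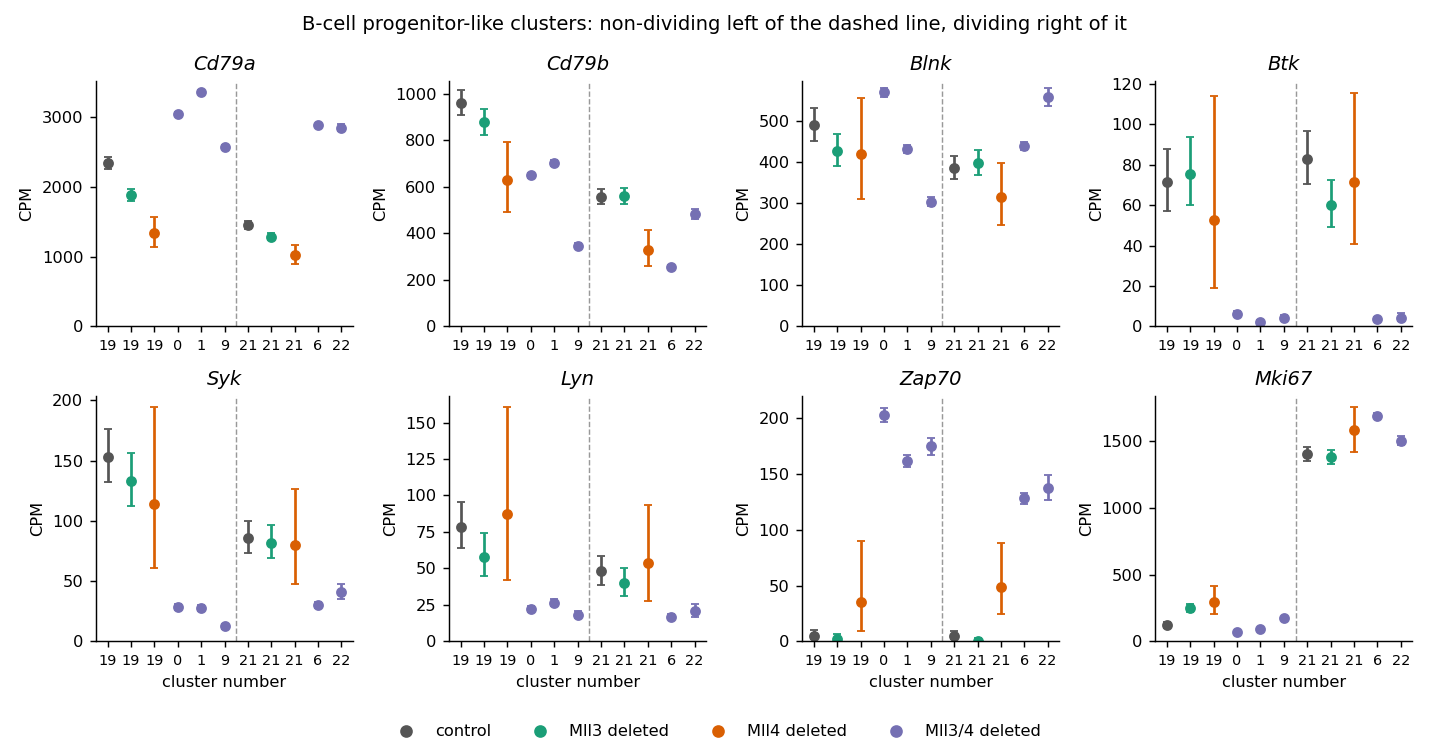
Levels of the 6 genes, of the kinase Zap70 and of the division marker Mki67 in each B-cell progenitor-like cluster of a library with at least 50 cells, in counts per 1000000 UMIs (linear axes from 0), with 95% intervals of counting error. The kinases Btk, Syk and Lyn are low in all 5 Mll3/4 clusters on both sides of the dashed line, where Btk lies between 2.30 and 6.27 CPM, and Zap70 is high in them.

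Only 6 Mll3/4-labelled cells fell into the clusters shared by the other libraries, and they held 4 Btk counts in 57536 UMIs (69.5 CPM, 18.9 to 178). The 6825 cells in that library's own clusters held 304 Btk counts (4.01 CPM, 3.57 to 4.48). Surface B220 did not mark a group of Mll3/4-labelled cells with control-like levels. Btk stood at 6.36 CPM in the 1010 cells above the B220 threshold and at 3.57 in the 5821 below it, a log2 ratio of below to above of -0.83 (-1.20 to -0.45). The ratio was 0.27 (0.09 to 0.45) for Syk and 0.14 (-0.05 to 0.34) for Lyn. For Cd79a, Cd79b and Blnk it was 0.10, 0.02 and 0.07.

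Across the other cell classes the 6 genes fell into 2 patterns. Cd79a and Blnk were B-lineage genes in these cells. In the control library Cd79a was at most 2.19 CPM and Blnk at most 1.003 CPM in every other named class with at least 50 cells, beside 1799 and 428 CPM in the B-cell progenitor-like class. In the Mll3-labelled library's 145 mature B cell-like cells, the one such group of 50 or more, Cd79a reached 2833 CPM, Cd79b 2314, Syk 361, Lyn 208, Blnk 190.4 and Btk 80.6. There Cd79a and Cd79b were nearly equal in counts, at 1.22 Cd79a for each Cd79b (1.13 to 1.33). The Mll4-labelled basophil/mast-like cells held Cd79a at 14.2 CPM, from 10 counts.

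Cd79b had a low level outside the B lineage as well. In control it was 45.2 CPM (38.9 to 52.1) in monocyte/macrophage progenitor-like, 31.9 (28.7 to 35.5) in granulocyte progenitor-like, 23.1 (20.5 to 26.0) in HSC/MPP-like, which are stem and multipotent progenitors, and 22.5 (14.7 to 33.0) in basophil/mast-like cells. It then stood at 16.9 in megakaryocyte-like, 3.09 (2.43 to 3.88) in neutrophil-like and 2.39 (2.05 to 2.78) in erythroid progenitor-like cells. The first 3 differed beyond counting error, HSC/MPP-like and basophil/mast-like cells did not, and neither did neutrophil-like and erythroid progenitor-like cells.

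The kinases were spread over nearly all classes, as is known of signalling proteins shared by myeloid and platelet lineages. Btk in control was highest in megakaryocyte-like cells (81.7 CPM, 77.1 to 86.5) and B-cell progenitor-like cells (78.3), which did not differ beyond counting error, and lowest among the myeloid classes in neutrophil-like cells (39.9, 37.4 to 42.5). Syk was highest in B-cell progenitor-like cells (112), followed by neutrophil-like (76.8, 73.3 to 80.4) and megakaryocyte-like cells (76.1, 71.6 to 80.7), and was 12.8 CPM in erythroid progenitor-like cells. Lyn was highest in neutrophil-like cells (90.5, 86.7 to 94.4), with B-cell progenitor-like cells (60.0) and megakaryocyte-like cells (49.1) next and overlapping, and was lowest in erythroid progenitor-like cells (18.8, 17.8 to 19.8). The 107 dendritic-like cells of the Mll4-labelled library held Lyn at 371 CPM (309 to 443), above every other group of 50 or more cells.

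**Figure D3:**
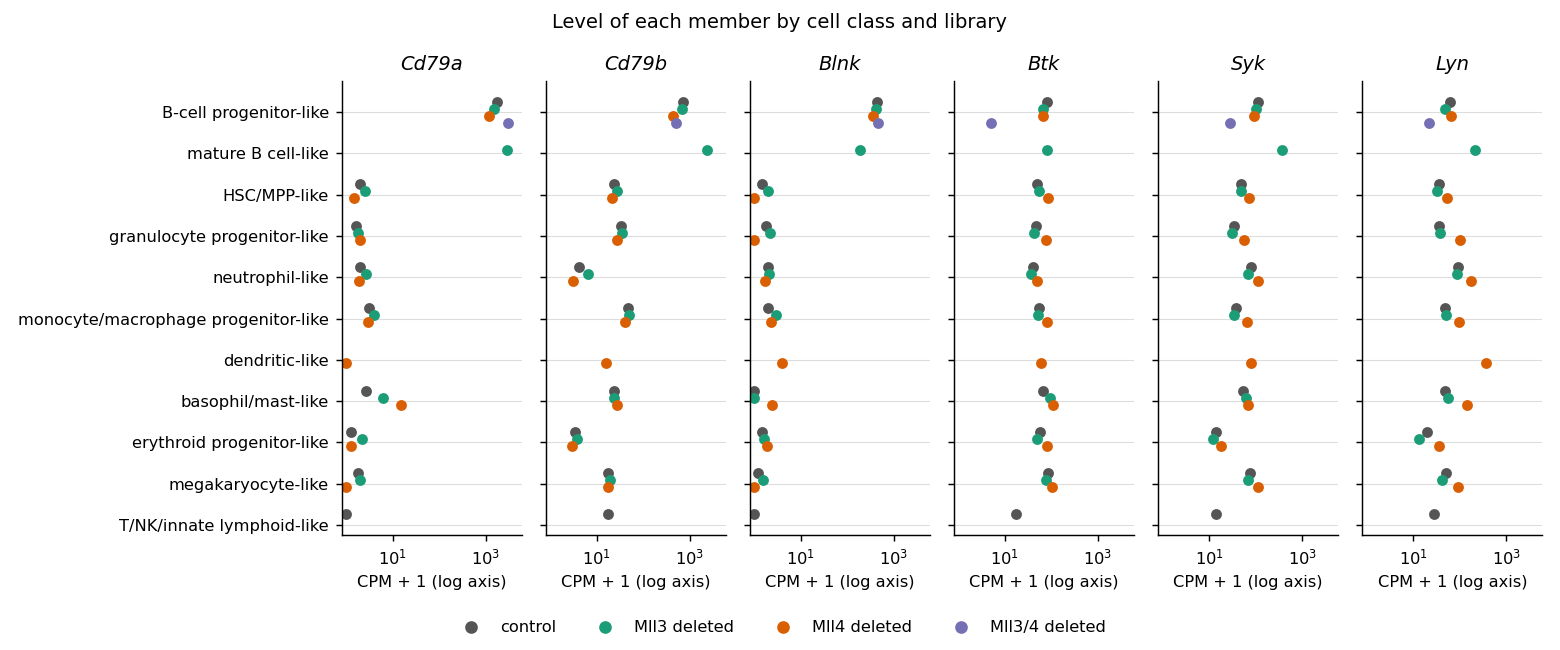
Level of each of the 6 genes (CPM + 1, log axis) in every cell class with at least 50 cells in a library, by library. Cd79a and Blnk are at most 3.28 CPM outside the 2 B classes, apart from Cd79a in the Mll4 and Mll3 basophil/mast cells (14.2 and 5.28 CPM), while Cd79b is at a low level in progenitors and Btk, Syk and Lyn are found in most classes; the Mll4 points for Lyn lie right of the control points in all 7 shared non-B classes.

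The Mll4-labelled library held more of the kinases in the myeloid, erythroid and stem cell classes. Against control the log2 ratio of Lyn was above 0 in 7 of 7 non-B classes with at least 50 cells in both libraries, from 0.56 in HSC/MPP-like to 1.59 in basophil/mast-like cells, and all 7 intervals lay above 0. In granulocyte progenitor-like cells Lyn stood at 35.1 CPM in control and 97.9 in the Mll4-labelled library (1.48, 1.23 to 1.73). In neutrophil-like cells it stood at 90.5 and 172 (0.93, 0.85 to 1.01). Btk was above control in 7 of 7 classes, from 0.28 to 0.77, and Syk in 7 of 7, from 0.36 to 0.81, with 6 intervals above 0. The all-gene median in these classes lay between 0.07 and 0.27, and between 4.74% and 11.3% of genes were 2-fold or more higher. No Btk or Syk value was past 2-fold. By rank, Btk lay above 61.9% (megakaryocyte-like) to 88.1% (HSC/MPP-like) of all genes in these classes. Syk lay above 61.2% (basophil/mast-like) to 84.9% (monocyte/macrophage progenitor-like). Lyn lay above 79.7% (HSC/MPP-like) to 97.7% (granulocyte progenitor-like). Different clusters held the neutrophil-like cells, clusters 2 and 14 in control and clusters 3 and 13 in the Mll4-labelled library. Median depth was lower in the latter (5142 against 15754 UMIs per kept cell), and its part in these ratios was not tested. In B-cell progenitor-like cells the Mll4-labelled intervals of all 3 kinases included 0 (Btk -0.27, Syk -0.27 and Lyn 0.11, the last -0.13 under TMM scaling, which rescales libraries to a trimmed mean of gene ratios). The Mll3-labelled library had Lyn below control in erythroid progenitor-like cells (18.8 and 12.5 CPM, -0.58, -0.71 to -0.46), its furthest value for a kinase among these 7 classes.

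Over the 31 groups of a class in a library with at least 50 cells, Cd79a and Blnk had nearly the same profile of log2(CPM + 1) (Pearson r = 0.96), and Cd79a and Cd79b a similar one (0.88). Syk and Lyn correlated at 0.73, Btk and Syk at 0.44, and Cd79a and Btk at -0.19. The groups share libraries and depth, several of the genes below were among the markers that named the classes, and these values are descriptions. Among 9774 genes with a mean of at least 5 CPM, the profile nearest to Cd79a was that of the recombinase gene Rag1 (0.99), then of the B-lineage transcription factor gene Pax5 (0.98) and Mzb1 (0.97). Among the nearest to Blnk were Rag1 (0.97) and Vpreb3 (0.97), and nearest to Cd79b were Rere (0.91), Gm43813 (0.91) and Ly6d (0.88). The kinases had no neighbour as close. Nearest to Btk were Gna15 (0.85), Tagln2 (0.76) and Tmem143 (0.72), to Syk Pnpla8 (0.84), Mark4 (0.79) and Casp4 (0.77), and to Lyn Stx7 (0.86), Slc4a2 (0.84) and Plekhf2 (0.84).

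The rest of the pathway was described through 54 further genes in 5 roles. In the Mll3/4-labelled B-cell progenitor-like cells, 50 had at least 20 counts in either library. Of these, 5 were 2-fold or more higher than control and 20 lower, with the background of 12.4% and 10.5% of genes given above. Their median log2 ratio was -0.41, beside -0.01 over all genes.

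Over the whole class, 3 of the 4 receptor partners of Cd79a and Cd79b were within 2-fold of control. The mu heavy chain gene Ighm stood at 959.8 CPM in control and 888 in the Mll3/4-labelled class, and the surrogate light chain genes Vpreb1 at 3461 and 2835 and Igll1 at 1286 and 1034. The surrogate light chain genes differed by kind of cluster. In non-dividing clusters Vpreb1 stood at 5464 CPM in control and 2993 in Mll3/4-labelled cells (-0.87, -0.90 to -0.83) and Igll1 at 1876 and 1014 (-0.89), while in dividing clusters both were higher, Vpreb1 at 2156 and 2510.1 (0.22, 0.17 to 0.27) and Igll1 at 902 and 1077 (0.26). Vpreb2 stood at 399 CPM in control and 0.883 in the Mll3/4-labelled class. Vpreb1 and Vpreb2 are near-identical copies, so how the counting divided their reads makes the Vpreb2 value uncertain.

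Among 13 other kinases of the list, 1 was 2-fold or more higher and 5 lower, where 12.4% of all genes were higher and 10.5% lower. The higher one was Zap70, the T-cell relative of Syk. It stood at 5.37 CPM (3.13 to 8.59) in control, 1.04 (0.215 to 3.05) in the Mll3-labelled, 42.3 (23.7 to 69.8) in the Mll4-labelled and 163 (160.2 to 166.0) in the Mll3/4-labelled class, a log2 ratio of 4.93 in the last (4.25 to 5.71). A Zap70 UMI was found in 74.7% of Mll3/4-labelled and 3.21% of control cells of the class, without thinning. The Mll4-labelled value rests on 15 counts in 142 cells. The summed level of markers of T, NK and innate lymphoid cells was not higher beside it, at 60.6 CPM in control and 15.6 in Mll3/4-labelled cells of the class. Of the 9 markers, 8 were detected in the latter (Gzma at 0) and 6 in control (Cd3e, Gzma and Il2rb at 0), which had fewer cells. The markers were not compared singly.

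Blk, a Src-family kinase of B cells, stood at 10.7 CPM (34 counts) in control, 9.73 in the Mll3-labelled and 19.7 (7 counts) in the Mll4-labelled class. In the Mll3/4-labelled class it had 3 counts in 75912086 UMIs (log2 ratio -8.09, -10.43 to -6.42), and these came from 1 of the 6 cells in the shared clusters. In that library's own 5 clusters it had 0 counts in 6825 cells, where 3 counts would be 0.0395 CPM. Tec, the relative of Btk, stood at 32.8 CPM in control, 22.2 in the Mll3-labelled, 22.6 in the Mll4-labelled and 5.74 in the Mll3/4-labelled class (-2.52). Fyn, another Src-family kinase, stood at 48.6, 44.1, 50.7 and 70.9 CPM and was not past 2-fold. Of the Src-family genes Lyn and Blk were thus low in the Mll3/4-labelled class and Fyn was not, while Btk and Tec of the Tec family were both low.

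Of 10 adaptors and co-receptors, 2 were 2-fold or more higher and 3 lower, where 12.4% of all genes were higher and 10.5% lower. Pik3r1, the regulatory subunit of PI3-kinase, stood at 85.6 CPM in control and 340.2 in the Mll3/4-labelled class (1.99, 1.82 to 2.17), and the adaptor Bank1 at 10.4 and 52.3 (2.33, 1.83 to 2.87). Lat2, an adaptor related to Lat, stood at 7.89 and 0.29 CPM (-4.77), from 25 and 22 counts. Of 12 effectors tested, 1 was higher and 6 lower, beside the same shares of all genes. Plcg2, the phospholipase downstream of Btk and Blnk, stood at 51.5 and 9.33 CPM (-2.46, -2.71 to -2.21), and the exchange factor Vav1 at 48.3 and 15.4 (-1.65). Foxo1, a transcription factor held back by PI3-kinase signalling, was the higher one, at 119.7 and 476 CPM (1.99).

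Of 11 inhibitors tested, 1 was higher and 5 lower, where 12.4% of all genes were higher and 10.5% lower. The phosphatase gene Ptpn22 stood at 17.4 CPM in control and 129 in the Mll3/4-labelled class (2.89, 2.51 to 3.30). The adaptor Dok3, which dampens B cell receptor signalling, stood at 56.8 and 0.566 CPM (-6.65, -7.16 to -6.16), from 180 and 43 counts. The phosphatase gene Ptpn6 stood at 48.9 and 7.31 CPM (-2.74). Lower genes were thus among both activating and inhibiting parts of the pathway.

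**Figure D4:**
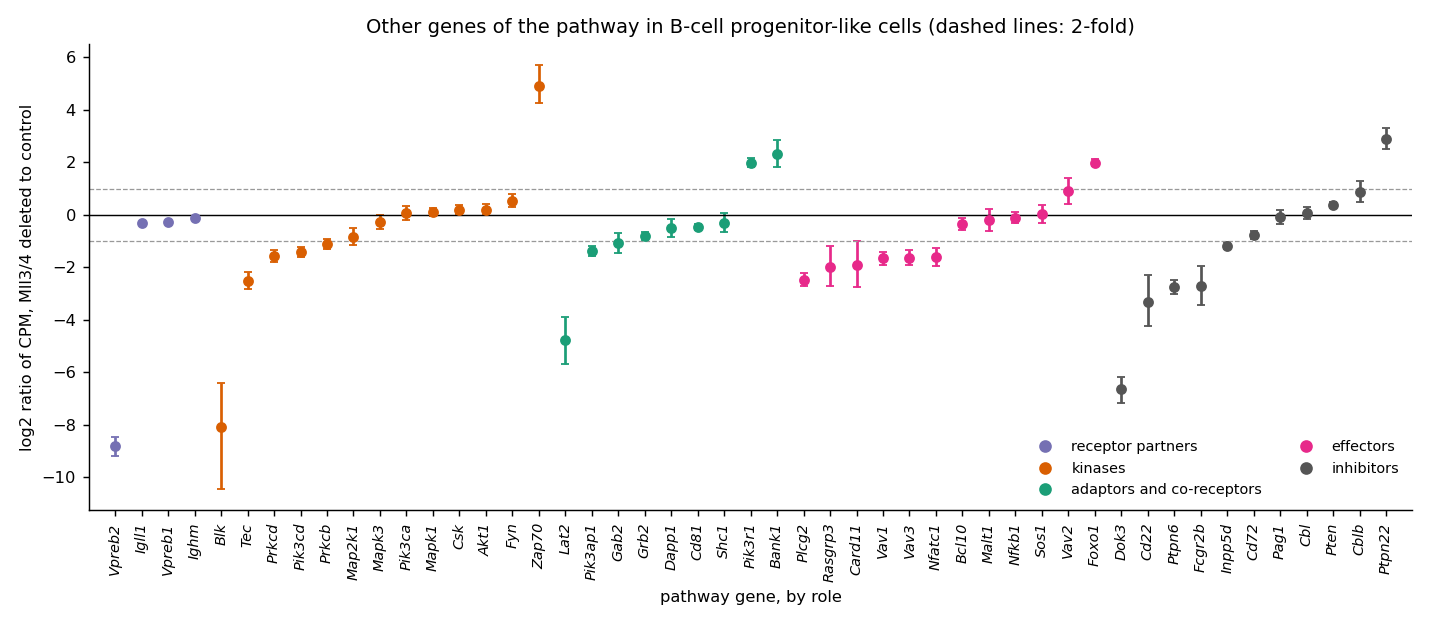
Log2 ratio of CPM, Mll3/4 deleted to control, for pathway genes with enough counts in B-cell progenitor-like cells, sorted within 5 roles, with 95% intervals of counting error and dashed lines at 2-fold. Zap70 (4.93) lies highest and Vpreb2, Blk and Dok3 lie lowest (-8.82, -8.09 and -6.65).

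In the single-deletion libraries few pathway genes of the class passed 2-fold. In the Mll3-labelled class 46 genes were tested, 0 were higher and 2 lower, where 0.609% of genes were higher and 2.59% lower. The 2 were Ptpn22 (17.4 and 6.25 CPM, -1.47, -2.33 to -0.68) and Lat2 (7.89 and 3.47, -1.18). Ptpn22 was thus lower in this library and higher in the Mll3/4-labelled one. In the Mll4-labelled class 44 were tested, 2 were higher and 3 lower, where 9% and 8.24% of genes were. The kinase gene Akt1 stood at 63.1 and 164 CPM (1.37, 0.93 to 1.80) and Vav1 at 48.3 and 118 (1.29, 0.76 to 1.79). The surrogate light chain gene Vpreb1 stood at 3461 CPM in control and 1686 in the Mll4-labelled class (-1.04, -1.16 to -0.92). Vpreb2 stood at 399 and 78.9 CPM (-2.34), and the exchange factor gene Sos1, with 4 counts in the Mll4-labelled class, had an interval that included 0 (-1.07, -2.98 to 0.35). The median log2 ratios in the Mll3-labelled and Mll4-labelled class were -0.28 and 0.17, beside -0.09 and 0.11 over all genes.

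Summed over all kept cells, 19 of 54 pathway genes were 2-fold or more higher and 16 lower in the Mll3/4-labelled library, where 19.8% and 19.5% of all genes were. Zap70 (0.306 and 160 CPM), Foxo1 (5.44 and 466) and Bank1 (1.24 and 51.1) were among those furthest above control. Lat2, the inhibitory receptor gene Pirb, Dok3 and Sla2 were furthest below it, with log2 ratios of -4.54, -3.94, -3.93 and -3.71. In the Mll4-labelled library 10 of 53 were higher and 4 lower, against 9.67% and 8.68% of all genes, a share of lower genes near the background. The higher ones were led by the inhibitory receptor gene Lilrb4a (8.51 and 70.2 CPM, 3.04) the protein kinase C gene Prkcb (17.8 and 58.7, 1.72), Vav1 (1.39) and Rasgrp1 (1.35). The 4 lower ones there were Vpreb2 (-3.18), Vpreb1 (-1.86), Igll1 (-1.20) and Sla2 (-1.17). In the Mll3-labelled library 1 was higher (Cd22, 0.124 and 0.302 CPM) and 1 lower (Zap70, 0.306 and 0.103 CPM) of 54, against 1.58% and 3.4% of all genes.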

How the data were processed

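Single-cell gene and antibody counts were deposited as 1 matrix per library. Per the submitters' processing notes the tools included Cell Ranger 6.1.2 and the build mm10; counting settings are not given in the sources used here. The deposited counts are whole UMIs per gene and cell, not normalized, and the antibody counts have 15 features, of which 2 are hashtags that the labels tie to no sample.

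Cells with at least 500 genes, 1000 UMIs and at most 10% mitochondrial UMIs were kept, and the highest Scrublet doublet scores were removed at 0.8% per 1000 barcodes (5.29% to 8.01% of cells passing the filters). Cells were clustered together in scanpy 1.11.5 (2000 variable genes, 30 components, 15 neighbours, Leiden resolution 1), leaving out the 6 genes and the 54 pathway genes. Clusters were named from 88 markers of 12 classes, with at least 3 markers detected in 10% of cells. Classes rebuilt in this way may differ from the submitters' own.

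UMIs were summed per library and class and given as CPM with exact Poisson intervals. Log2 ratios have exact conditional binomial intervals and no pseudocount, shares of cells have exact Clopper-Pearson intervals, all at 95%, and a count of 0 was set to 3 counts. Genes with at least 20 counts in either library were compared, and 2-fold was the threshold. With 1 library per group no p-value was computed. Alternatives were other filters, clusterings, gates, count minimums and TMM scaling (edgeR 4.0.16). The code was tested on simulated data. Of 32285 gene identifiers, 32158 were found in GENCODE M21.

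The members and lists were chosen with earlier results of these data known. The genes named were the 6, the 4 highest and 4 lowest pathway genes past 2-fold with an interval that leaves out 0, and the 3 genes most like each of the 6. Ighm, Igll1, Fyn, Tec, Plcg2, Ptpn6, Foxo1 and Sos1, and Vpreb1 and Vav1 in the Mll3/4-labelled class, were named after their values were seen. The values of 1 gene of the pathway list are not reported here, though it is in the list's counts and medians.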

Additional observations from a re-analysis of the deposited data

How the results depend on the processing

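No paired analysis was possible because each group has 1 library, and for the same reason no library could be left out of its group. The alternatives gave 324 values for single members, of which 11 had the opposite sign, and all 74 values of members past 2-fold stayed past it in the same direction. Some of these values repeat the main ones: Leiden resolution 2 and clustering seed 1 gave the same class sizes and all-gene medians as the main clustering. The sign changed for Cd79b in the Mll3/4-labelled class with cells chosen by at least 3 marker UMIs (0.03), for Blnk there in non-dividing clusters (-0.12), and otherwise in the single-deletion libraries, where TMM scaling gave 0.01 for Cd79b and 0.02 for Blnk in the Mll3-labelled and -0.13 for Lyn in the Mll4-labelled class. TMM scaling moved the all-gene median in the class from 0.11 to -0.14 in the Mll4-labelled and from -0.01 to 0.11 in the Mll3/4-labelled library, and the shares of all genes higher and lower in the Mll4-labelled class from 9% and 8.24% to 4.35% and 12.02%. Under this scaling 6 of 50 pathway genes were higher in the Mll3/4-labelled class and 18 lower, where 14.1% and 9.19% of all genes were.

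Over all cells, the count of pathway genes higher in the Mll3-labelled library was 0 at most 5% mitochondrial UMIs, 2 by the mean of each cell's share and 0 at a minimum of 100 counts. The count lower there was 2 of 54 at most 5% mitochondrial UMIs (3.60%) and 0 of 48 at 100 counts (1.78%). By the mean of cell shares 6 of 53 were higher in the Mll4-labelled library (7.28%). The median log2 ratio of the 6 members over all cells was -0.26 in the Mll4-labelled and 1.82 in the Mll3/4-labelled library in the main setting. By cell shares it was -0.57 and 0.95. In the Mll3/4-labelled library 3 members lay above control and 3 below in the main setting, so its median falls between these groups. With TMM scaling the Mll4-labelled median was -0.36. For the B-cell progenitor-like class, or a gate in its place, the Mll3-labelled library had few pathway genes past 2-fold. By the B220 gate 1 of 53 was higher (1.58% of all genes), as by the marker UMI gate (1.75%). At a minimum of 1 count 1 of 52 was higher (4.23%). The lower count there was 1 of 46 by cell shares (3.64%), 6 of 52 at a minimum of 1 count (6.83%) and 0 of 32 at 100 (0.393%). In the Mll4-labelled library the higher count was 12 by the B220 gate, 5 at a minimum of 1 count and 4 in dividing and in non-dividing clusters, and the lower count 6 by the B220 gate and in non-dividing clusters. The share of all genes higher in that library was 9% as reported, 9.57% by the B220 gate (12 of 51 pathway genes tested), 20.2% at a minimum of 1 count, 9.41% in dividing and 9.43% in non-dividing clusters, and the share lower 8.24%, 7.84% by the B220 gate and 12.5% in non-dividing clusters. In the Mll3/4-labelled library 13 were lower in dividing clusters (6.27% of all genes), and the median of the members was -0.65 by the marker UMI gate, -1.17 in dividing and -1.22 in non-dividing clusters. The split by division was chosen after seeing the data, and the cause of these shifts was not tested. The Mll4-labelled class held 354688 UMIs, with 23 counts each for Btk and Lyn.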
